A study of Mus musculus with 8 samples.

Results

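Men1 and 9 genes for proteins that work with its product were followed in peritoneal macrophages of mice with and without a knockout of Men1. The 10 genes were Men1, Kmt2a, Kmt2b, Psip1, Wdr5, Rbbp5, Ash2l, Dpy30, Hcfc1 and Jund, found by gene name among the 54532 genes of the deposited count table. All 10 had a row and all 10 passed the filter on low counts. The cells were taken from the peritoneal cavity after thioglycollate broth, an irritant that recruits leukocytes to the cavity, which KO and WT animals received alike. RNA sequencing covered 3 M_KO libraries (M_KO_5944, M_KO_5645 and M_KO_5642), 3 M_WT libraries (M_WT_5643, M_WT_6258 and M_WT_6255), 1 F_KO library (F_KO_5639) and 1 F_WT library (F_WT_5638). The digits are animal numbers, each used once. The letters M and F are kept as the labels have them, since the labels do not spell them out. The allele, any Cre driver, the strain, the age and the interval after the broth do not appear in the labels.

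Menin, the product of Men1, is a scaffold protein with no catalytic activity of its own and is best known as a tumour suppressor of endocrine tissues. It binds the amino-terminal part of the histone H3 lysine 4 (H3K4) methyltransferases KMT2A and KMT2B, and together with KMT2A it forms the surface that holds LEDGF, a chromatin reader encoded by Psip1. The methyltransferases work with a core module of WDR5, RBBP5, ASH2L and DPY30, which other H3K4 methyltransferases share, while HCFC1 is a further subunit of the menin complexes and JUND is a transcription factor that binds menin directly. KMT2B is known in mouse macrophages for maintaining expression of Pigp, a gene of glycosylphosphatidylinositol anchor synthesis.

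Total counts ran from 18206427 to 22853583 per library, and Spearman correlations across genes between libraries ran from 0.949 to 0.988. Levels are CPM (counts relative to the library total) scaled by TMM over the 8 libraries, and a count of 0 would allow up to 0.120 to 0.170 CPM depending on the library. All 8 macrophage markers had counts, with a summed level of 17909 to 20554 CPM in M_KO and 20797 to 32119 CPM in M_WT. The macrophage sums of the M groups did not overlap, but without Lyz2, the lysozyme gene that dominates the sum, they were 7289 to 9090 CPM in M_KO and 7910 to 11571 CPM in M_WT and overlapped. B cell markers summed to 183 to 550 CPM in M_KO, 119 to 375 CPM in M_WT, 606 CPM in F_KO and 364 CPM in F_WT. Summed markers of T cells, neutrophils, mast cells and basophils, eosinophils, dendritic cells, mesothelium and erythroid cells reached at most 25.5 CPM in any library. The part of these other cells in the results was not tested, and in such bulk RNA fewer cells of a type and less RNA per cell cannot be told apart.

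Men1 was the member that stood apart, with M_KO libraries at 35.8% of the M_WT level on average. Men1 (ENSMUSG00000024947) lies on chromosome 19 from 6334979 to 6340891 on the plus strand of GRCm38, and its annotation in GENCODE M21 lists 14 transcripts, 11 of them protein-coding. The M_KO libraries held 144, 126 and 211 Men1 counts, against 523, 322 and 423 in M_WT. As levels, the M_KO libraries were at 8.15, 6.45 and 8.42 CPM, against 25.7, 17.1 and 21.4 CPM in M_WT, in the order of libraries above. The highest M_KO library lay below the lowest M_WT library by a wide gap, and no KO library was near the level that a count of 0 allows.

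The mean Men1 level was 7.68 ± 1.07 CPM in M_KO and 21.4 ± 4.30 CPM in M_WT (SD, n = 3 each). The log2 fold change was -1.49 (SE 0.21, 95% interval -1.98 to -0.99), a fold of 0.357 with an interval of 0.253 to 0.502. By edgeR's quasi-likelihood test with Benjamini-Hochberg adjustment over all genes the adjusted p was 0.272, which did not pass the threshold of 0.05, although only 9 of the 13646 genes tested had a lower unadjusted p than the 0.000210 of Men1. DESeq2 gave an adjusted p of 4.49e-06 and did call it. The exact two-sided permutation test gave p = 0.1, the lowest value that 3 against 3 libraries can reach. In the authors' deposited table Men1 has a log2 fold change of -1.48 and an adjusted p of 0.00363.

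In the F pair Men1 held 245 counts (11.7 CPM) in F_KO and 417 counts (18.1 CPM) in F_WT. The F_KO level lay above all 3 M_KO libraries and below all 3 M_WT libraries, while F_WT lay within the M_WT range. The ratio of F_KO to F_WT was 0.645, with a 95% exact interval of 0.549 to 0.758 that covers counting error only. With 1 library per genotype the F values carry no test, and whether the difference varies between M and F was not tested. Counts are summed over the gene, so they do not show whether the KO transcripts lack an exon.

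Men1 is the gene that was knocked out, so its lower level in KO is a check of the labels. The bases just upstream of Men1 are shown because its transcript remained measurable in each KO library. Whether they have a part in its level was not tested. The bases are the plus strand of chr19:6334729-6334978 (GRCm38.p6, from RefSeq), ending at the base before the annotated start, with a CCAAT box in capitals.
Men1: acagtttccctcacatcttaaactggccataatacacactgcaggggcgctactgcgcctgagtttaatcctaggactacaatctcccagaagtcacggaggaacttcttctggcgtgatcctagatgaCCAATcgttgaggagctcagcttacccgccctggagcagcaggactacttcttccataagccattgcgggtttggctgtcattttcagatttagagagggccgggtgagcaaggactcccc
This CCAAT begins at position -121 from the start, and a GC box (GGGCGG read on the minus strand) begins at position -96. Windows of 250 bases before and 50 bases after the start were searched for 6 of the genes (Men1, Kmt2a, Wdr5, Rbbp5, Dpy30 and Hcfc1). No window was listed for Kmt2b, Psip1 and Ash2l. The window listed for Jund lies 1210 bases from the start in the count table and was not used. Searched on both strands, the GC box GGGCGG was in 4 of these 6 windows and in 35.7% of all 32851 RefSeq promoter windows, and CCAAT was in 2 of 6 (Men1 and Dpy30) and in 37.4% of all. The AP-1 motif TGANTCA, which JUND dimers bind, was in 0 of 6 windows and in 7.81% of all. The TATA box TATAAA and the E-box CACGTG were likewise in 0 of 6, beside 13.6% and 7.15% of all windows. The GC content ran from 40.7% (Dpy30) to 75.7% (Kmt2a), with 53.3% at Men1 and a median of 52.7% over all windows.

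**Figure D1:**
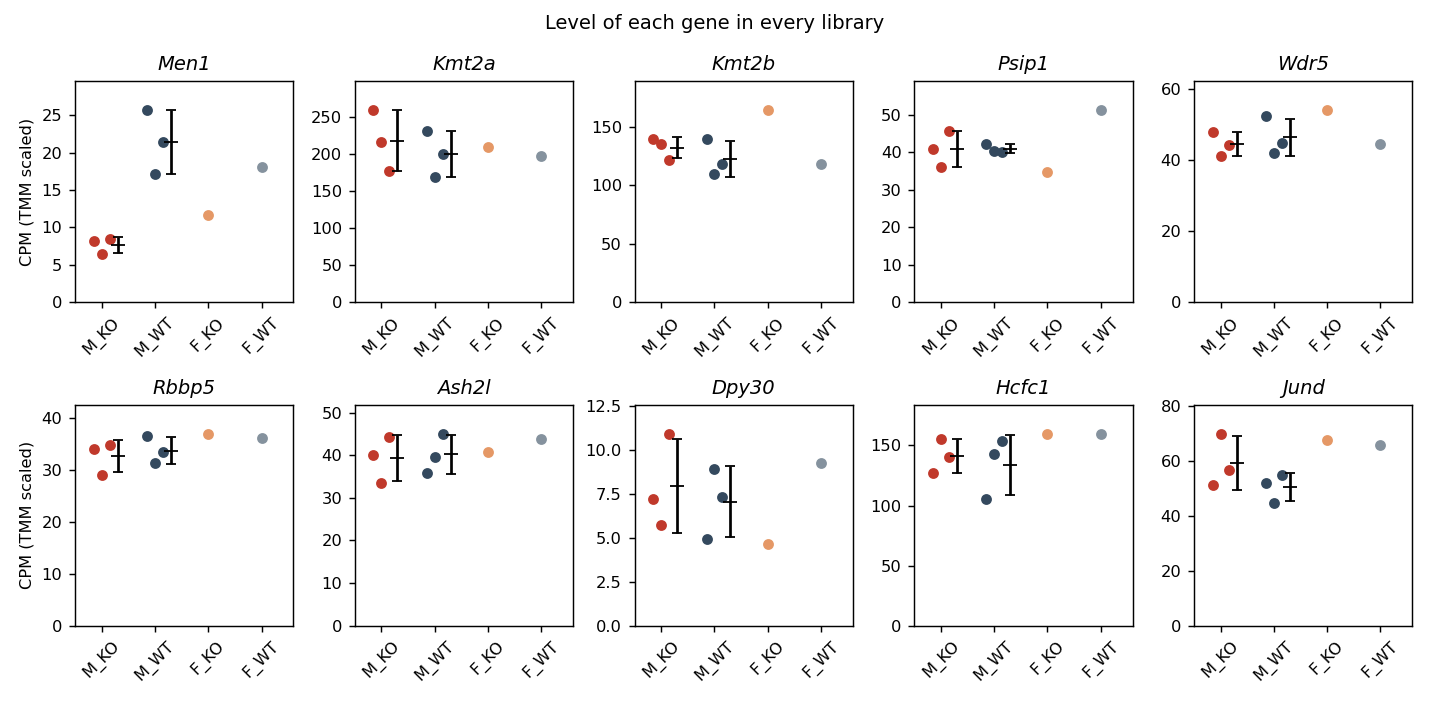
TMM-scaled CPM of each of the 10 genes in every library (points), with the mean and SD of the M groups (bars, n = 3 each); the vertical axes start at 0 and differ between genes. Men1 is the gene whose M_KO points (6.45 to 8.42 CPM) lie apart from its M_WT points (17.1 to 25.7 CPM), while in the other 9 panels the M_KO and M_WT points overlap.

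None of the 9 partner genes passed a test between M_KO and M_WT, in edgeR or in DESeq2, and for each of the 9 the libraries overlapped. Among all 10 genes, edgeR called 0 at an adjusted p under 0.05, beside 0.0220% of all genes tested (0.00733% lower in M_KO), and DESeq2 called 1, Men1, beside 1.19% of the 15676 genes to which it gave an adjusted p. At an unadjusted edgeR p under 0.05 there was again 1 member, Men1, beside 9.89% of all genes. Men1 was also the 1 member of 10 with no overlap between the genotypes' libraries, as 16.0% of all genes had, or 6.95% when only those lower in M_KO are counted. In the authors' deposited table, which calls 0.553% of its 23513 rows, Men1 is called and the other 9 have an adjusted p of 1. The spread between libraries was wide, with a biological coefficient of variation of 0.30 and 4 residual degrees of freedom, so a p that misses the threshold does not show that these genes were equal between genotypes. The interval of each fold says how large a difference the libraries allow.

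Of the methyltransferases, Kmt2a is the partner through which menin is best known in leukaemia. Its gene spans 44803355 to 44881296 on chromosome 9, minus strand. It stood at 259.3, 215.8 and 177.1 CPM in M_KO, against 230.3, 169.4 and 199.5 CPM in M_WT. The groups overlapped throughout, with M_KO_5944 highest and M_WT_6258 lowest. The fold was 1.08 with an interval of 0.800 to 1.47, so neither a fall to below 0.800 of the M_WT level nor a rise past 1.47 lies inside it. In the F pair it was at 209.6 CPM in F_KO and 196.7 CPM in F_WT. The overlapping genes within its span (Gm48314 and an antisense gene) held 87 and 65 counts over all libraries, against 33947 for Kmt2a.

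Kmt2b, the other menin-binding methyltransferase (chromosome 7, 30568858 to 30588726, minus strand), was at 139.2, 135.6 and 121.7 CPM in M_KO, against 140.0, 109.7 and 118.6 CPM in M_WT. Here too the groups overlapped, with 1 M_WT library, M_WT_5643, above all of M_KO. The fold was 1.07 with an interval of 0.863 to 1.33. In the F pair Kmt2b was at 164.6 CPM in F_KO and 118.4 CPM in F_WT, a ratio of 1.39 (95% exact interval 1.32 to 1.46, counting error only). The F_KO library was the highest of the 8 for this gene, and F_WT lay inside the M_WT range.

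Psip1 encodes LEDGF, the reader that tethers the menin complex to transcribed chromatin (chromosome 4, 83455680 to 83486459, minus strand). Its level was 40.9, 36.0 and 45.7 CPM in M_KO and 42.4, 40.5 and 40.2 CPM in M_WT. The means were almost level at 40.9 ± 4.83 and 41.0 ± 1.20 CPM, with M_WT inside the M_KO range and a fold of 0.992 (interval 0.808 to 1.22). The F pair differed more, at 34.8 CPM in F_KO and 51.4 CPM in F_WT, a ratio of 0.677 (95% exact interval 0.616 to 0.743, counting error only). These F libraries were the lowest and the highest of the 8. Psip1 shares 11997 bases of its span with Snapc3 on the opposite strand, and the labels do not state the strand setting of the counting. Snapc3 itself had a log2 fold change of 0.01 in M_KO over M_WT (edgeR adjusted p = 0.994). In the F pair Snapc3 was at 14.2 CPM in F_KO and 18.1 CPM in F_WT, lower in F_KO as Psip1 was. The part of the shared span in the Psip1 values was not tested.

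None of the core module genes Wdr5, Rbbp5, Ash2l and Dpy30 passed a test between M_KO and M_WT. Wdr5, whose product docks the module on the methyltransferase (chromosome 2, 27515157 to 27536535), was at 48.1, 41.2 and 44.3 CPM in M_KO, against 52.4, 42.1 and 44.9 CPM in M_WT. Rbbp5, whose product pairs with ASH2L to activate the catalytic domain (chromosome 1, 132477365 to 132505659), was at 34.1, 29.1 and 34.9 CPM in M_KO, against 36.6, 31.3 and 33.5 CPM in M_WT. For both genes the lowest library was M_KO_5645 and the highest M library M_WT_5643, and the groups overlapped. For Rbbp5 the other M_KO libraries lay above the other M_WT libraries. The folds were 0.955 (interval 0.769 to 1.19) for Wdr5 and 0.965 (interval 0.779 to 1.19) for Rbbp5. The near copy Wdr5b, which could share reads with Wdr5, ran from 3.0 to 5.79 CPM in M_KO and from 3.78 to 5.42 CPM in M_WT.

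Ash2l, the third module member (chromosome 8, 25815996 to 25847694), was at 40.1, 33.6 and 44.4 CPM in M_KO, against 35.9, 39.5 and 45.1 CPM in M_WT. M_KO_5645 was again the lowest library, and the fold was 0.975 (interval 0.760 to 1.25). Dpy30, which binds ASH2L as a dimer (chromosome 17, 74299474 to 74323944), was at 7.19, 5.74 and 10.9 CPM in M_KO, against 4.92, 8.95 and 7.34 CPM in M_WT. Its fold of 1.12 had the widest interval of the 10 genes on the log2 scale (as a fold, 0.661 to 1.91), and its libraries were fully mixed between genotypes.

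In the F pair Dpy30 was at 4.68 CPM in F_KO, from 98 counts, and at 9.26 CPM in F_WT, from 213 counts, a ratio of 0.505 (95% exact interval 0.394 to 0.645, counting error only). Men1 and Dpy30 were the 2 members of 10 past 1.5-fold in the F pair on the log2 scale with a prior count of 2, beside 25.6% of all genes tested. That fold was chosen after the values were seen. Dpy30 is the shortest of the 10 genes, with an annotated length of 1146 bases. Over the 8 libraries its deviation from its own mean had the same sign as the median deviation of the 650 protein-coding genes of 800 to 1500 bases in 7 of 8 libraries. That median was -0.02, -0.10 and 0.16 (log2) in M_KO, -0.07, 0.07 and 0.03 in M_WT, -0.09 in F_KO and 0.08 in F_WT, and the part of gene length in the Dpy30 values was not tested. Wdr5 was at 54.2 CPM in F_KO and 44.6 CPM in F_WT, a ratio of 1.22 (interval 1.12 to 1.32, counting error only), whereas the intervals of Rbbp5 (ratio 1.02, interval 0.925 to 1.13) and Ash2l (ratio 0.932, interval 0.849 to 1.02) held a ratio of 1.

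Hcfc1 encodes a chromatin-bound coregulator that joins KMT2A and KMT2B complexes (chromosome X, 73942792 to 73966357, minus strand). Its level was 127.4, 155.2 and 140.7 CPM in M_KO, against 105.7, 143.1 and 153.3 CPM in M_WT. M_WT_5643 was the lowest library, the others overlapped, and the fold was 1.05 (interval 0.796 to 1.38). The F libraries were at 159.9 CPM in F_KO and 159.9 CPM in F_WT, a ratio of 1.0 (95% exact interval 0.954 to 1.05, counting error only).

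Jund encodes the AP-1 transcription factor that menin binds and holds back (chromosome 8, 70698949 to 70700616). It was at 51.0, 69.9 and 56.7 CPM in M_KO, against 51.8, 44.7 and 54.9 CPM in M_WT. The M_KO libraries included the highest of the 6 (M_KO_5645), but M_KO_5944 lay below both M_WT_5643 and M_WT_6255. The mean was 59.2 ± 9.70 CPM in M_KO and 50.4 ± 5.23 CPM in M_WT (SD, n = 3 each). The log2 fold change of 0.23 (SE 0.16, interval -0.15 to 0.60) was the largest in size among the 9 partners on that scale and had an edgeR adjusted p of 0.656 and a DESeq2 adjusted p of 0.870, and it was 0.085 without M_KO_5645 and 0.14 without M_WT_6258. In the F pair Jund was at 67.4 CPM in F_KO and 65.7 CPM in F_WT, both within the M_KO range and above all M_WT libraries.

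Over the 9 partners, 4 were fitted lower and 5 higher in M_KO, and the log2 fold changes ran from -0.07 to 0.23 with a median of 0.07. The median size of the log2 fold change, sign aside, was 0.07 for the 9 partners and 0.21 over all 13646 genes tested. These medians were not matched for level, so they do not show that the partners differed less than genes of like level. The median over all genes was 0.01.

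**Figure D2:**
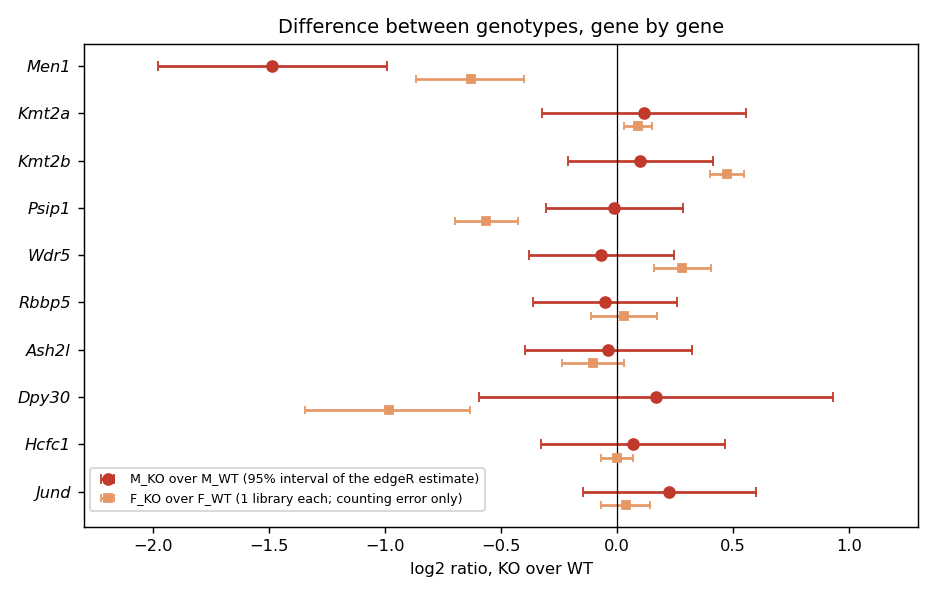
Log2 ratio of KO over WT for each gene, as the edgeR estimate with its 95% interval for M_KO over M_WT (circles) and as the ratio of scaled counts with an exact interval for counting error only for F_KO over F_WT (squares). The M interval of Men1 (-1.98 to -0.99) lies below 0 and the M intervals of the 9 partners all include 0; in the F pair the intervals of Men1, Psip1 and Dpy30 lie below 0 and those of Kmt2a, Kmt2b and Wdr5 above it.

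To set the genes beside each other, the authors' FPKM values were used, which divide the fragment count by gene length and library size. Jund had the highest level, with a mean of 35.1 ± 5.69 FPKM in M_KO and 30.2 ± 3.01 FPKM in M_WT (SD, n = 3 each). Hcfc1, Wdr5, Kmt2b and Kmt2a followed between 12.2 and 16.7 FPKM in M_KO and between 12.0 and 16.0 FPKM in M_WT, and neighbours among these 4 overlapped in M_WT. Rbbp5 and Psip1 came next at 8.23 ± 0.77 and 7.94 ± 0.89 FPKM in M_KO, and at 8.58 ± 0.70 and 8.05 ± 0.28 FPKM in M_WT. In the M_WT order the steps whose libraries did not overlap were from Jund to Hcfc1, from Kmt2a to Rbbp5 and from Psip1 to Men1. Men1 was 10th of the 10 in M_KO and 8th in M_WT, with 2.19 ± 0.30 FPKM in M_KO and 6.19 ± 1.26 FPKM in M_WT. In M_WT it overlapped Dpy30 (6.15 ± 1.76 FPKM), which overlapped Ash2l (4.47 ± 0.48 FPKM), the lowest of the 10. In M_KO every Men1 value (1.85 to 2.38 FPKM) lay below the lowest Ash2l value (3.70 FPKM). In the F pair Men1 was at 3.36 FPKM in F_KO, below the other 9 genes there, and at 5.15 FPKM in F_WT, above Ash2l (4.79 FPKM).

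**Figure D3:**
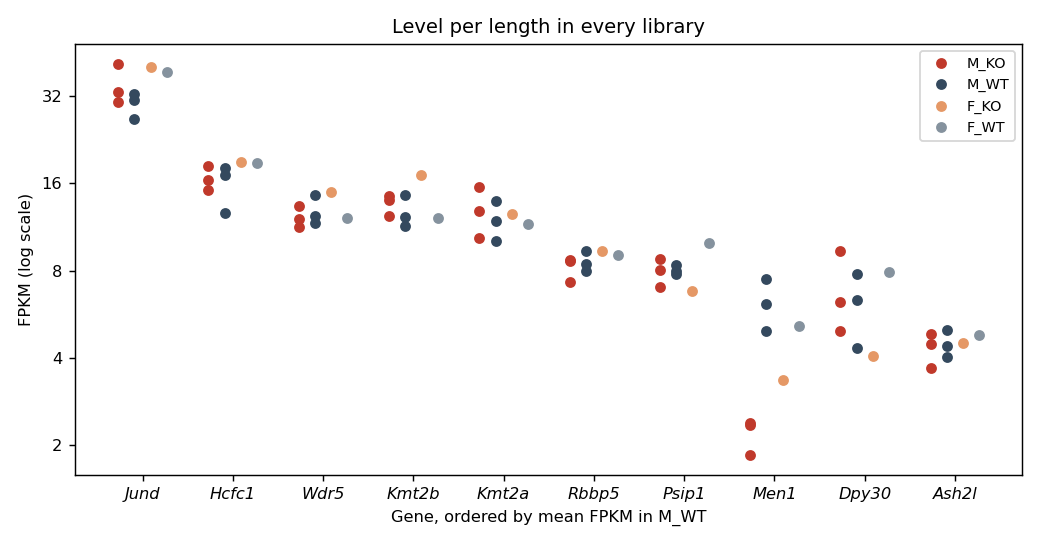
Deposited FPKM of the 10 genes in every library on a log scale, with genes in the order of their M_WT mean. Jund lies highest (26.8 to 41.5 FPKM in the M libraries) and the M_KO values of Men1 lie lowest (1.85 to 2.38 FPKM), below every other point.

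Across the 8 libraries Men1 varied most, with the highest library at 3.99 times the lowest, and 91.5% of the 1708 genes of like level had a smaller SD of log2 CPM. Dpy30 came next, with a ratio of 2.34 and 67.3% of like genes below it. Over all libraries the other 8 genes had ratios from 1.27 (Rbbp5) to 1.57 (Jund). The share of like genes that varied less ran from 15.5% for Rbbp5 to 57.9% for Jund among these 8, with Kmt2a at 46.0% and Kmt2b at 46.6%. M_KO_5645 was the lowest library for Men1, Wdr5, Rbbp5 and Ash2l, and M_WT_6258 for Kmt2a, Kmt2b and Jund. Kmt2a and Kmt2b are the longest of the 10, and the 1524 protein-coding genes longer than 9000 bases had their lowest median deviation in M_WT_6258 too (-0.06 on the log2 scale). For each of these methyltransferase genes the deviation had the sign of that median in 6 of 8 libraries, and the part of gene length was not tested.

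None of the partners followed Men1 closely over the 8 libraries, each of which gave both values of a pair. Pearson's r of log2 CPM with Men1 ran from -0.38 (Jund) to 0.42 (Rbbp5), given as a description without a test. The 3 genes most like Men1 by the same measure, among 10187 protein-coding genes with a formal symbol and a mean log2 CPM of at least 1, were Phlda1 (r = 0.98), Denr (r = 0.96) and Jpt2 (r = 0.96). Phlda1, a pleckstrin homology-like domain gene on chromosome 10, ran from 8.37 to 9.78 CPM in M_KO and from 16.6 to 18.9 CPM in M_WT, with 11.9 CPM in F_KO and 17.4 CPM in F_WT. Denr, a translation reinitiation factor gene on chromosome 5, ran from 63.6 to 76.8 CPM in M_KO and from 117.8 to 123.0 CPM in M_WT, with 78.9 CPM in F_KO and 100.8 CPM in F_WT. Jpt2, on chromosome 17, ran from 43.7 to 47.9 CPM in M_KO and from 63.1 to 67.0 CPM in M_WT, with 52.2 CPM in F_KO and 56.7 CPM in F_WT. These genes were picked for this likeness, so their order across libraries, with F_KO above the M_KO range as for Men1, is part of the choice. The r within each genotype draws on the same values that picked the genes, and the KO r includes that F_KO library. Within genotype, over 4 libraries each, r was 0.87 in KO and 0.93 in WT for Phlda1, 0.85 in KO and 0.59 in WT for Denr, and 0.99 in KO and 0.49 in WT for Jpt2. The values of all 8 libraries thus join KO and WT libraries that lie apart in Men1. DESeq2 called Phlda1 (adjusted p = 2.19e-04) and Denr (adjusted p = 5.95e-04) in M_KO against M_WT and not Jpt2 (adjusted p = 0.0604), and edgeR called none of the 3 (adjusted p 0.285 to 0.407). DESeq2 called 1.19% of all genes to which it gave an adjusted p. A choice by likeness to Men1 favours genes that differ between the genotypes, so these p-values are no separate support.

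Genes around the complex were examined in 6 lists, and 0 of their 72 tested genes were called by edgeR or by DESeq2 in M_KO against M_WT. Over all genes edgeR called 0.0220% and DESeq2 1.19%. With shares so low, 0 calls do not show that the lists differed less than other genes. Over all 13646 genes tested, 6618 were fitted lower and 7028 higher in M_KO, and 9.89% had an unadjusted edgeR p under 0.05 (603 lower, 746 higher). Among the other H3K4 methyltransferase complexes, 12 of 13 listed genes were tested, with 4 fitted lower and 8 higher, a median log2 fold change of 0.07, and 0 at an unadjusted edgeR p under 0.05. Kmt2c, the catalytic subunit of an enhancer complex, was at 95.2 ± 38.0 CPM in M_KO and 61.8 ± 6.56 CPM in M_WT (log2 fold change 0.62, SE 0.27). M_KO_5645 alone was at 139.1 CPM, with the other M_KO libraries at 74.2 and 72.4 CPM, all above the highest M_WT library at 68.7 CPM, and without M_KO_5645 the log2 fold change was 0.24. Its relative Kmt2d (0.13, SE 0.14) and Cxxc1, the CpG-binding subunit of the SETD1 complexes (0.19, SE 0.12), had smaller log2 fold changes. Pagr1a had no count in any M library.

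All 5 H3K4 demethylase genes were fitted lower in M_KO, beside 6618 of 13646 genes, but all 5 were higher in F_KO than in F_WT. Their median log2 fold change was -0.17, with 0 at an unadjusted edgeR p under 0.05, beside 9.89% of all genes. Their median log2 difference in the F pair was 0.20, beside -0.01 over all genes. Kdm5b had a log2 fold change of -0.42 (SE 0.25), Kdm5c of -0.21 (SE 0.11) and Kdm1b of -0.17 (SE 0.21). Without M_WT_5643 the values were -0.19 for Kdm5b and -0.00034 for Kdm1b. Kdm5c was at 158.2, 150.6 and 137.5 CPM in M_KO, all below the 174.4, 173.1 and 166.0 CPM of M_WT, and in the F pair it was at 224.3 CPM in F_KO and 194.6 CPM in F_WT.

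Of the 13 elongation partners, proteins that KMT2A is fused to in leukaemia or that act with them, 6 were fitted lower and 7 higher, with a median of 0.03. At an unadjusted edgeR p under 0.05 there were 2, beside 9.89% of all genes, both lower in M_KO: Aff1, a scaffold of the super elongation complex, and Ell2, an elongation factor of it. Aff1 was at 295.5, 261.7 and 184.9 CPM in M_KO, all below the 381.1, 391.4 and 340.3 CPM of M_WT (log2 fold change -0.59, SE 0.19, edgeR adjusted p = 0.450). Ell2 averaged 139.9 ± 30.2 CPM in M_KO and 202.9 ± 20.9 CPM in M_WT (log2 fold change -0.54, SE 0.18), and it was chosen after its values were seen. Mllt3 (0.79, SE 0.40) and Aff3 (0.68, SE 0.56) had larger log2 fold changes in size but low levels, at 4.61 and 4.64 CPM in M_KO and 2.64 and 2.88 CPM in M_WT. Both rested on M_KO_5645, without which Mllt3 had a log2 fold change of 0.34 and Aff3 of -0.028.

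Of the 10 AP-1 genes whose products can pair with JUND or act at its sites, 8 were fitted lower and 2 higher in M_KO. The median of the 10 was -0.33 on the log2 scale, with 0 at an unadjusted edgeR p under 0.05, beside 9.89% of all genes. Fos was at 9.34, 26.0 and 23.0 CPM in M_KO, against 17.1, 8.68 and 9.92 CPM in M_WT (log2 fold change 0.70, SE 0.43). Atf3, a stress-induced factor, was at 86.7, 79.7 and 164.3 CPM in M_KO, against 111.3, 232.8 and 173.4 CPM in M_WT (log2 fold change -0.65, SE 0.36). Both genes had overlapping groups and a wide spread within each genotype, and without 1 library each the log2 fold change ran from 0.44 to 1.07 for Fos and from -1.06 to -0.38 for Atf3. Fosl1 had a log2 fold change of -0.58 (SE 0.36).

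Of 25 tested genes for other proteins reported to bind menin, 15 were fitted lower and 10 higher, with a median of -0.06. At an unadjusted edgeR p under 0.05, 3 of the 25 were higher in M_KO and 1 was lower, beside 9.89% of all genes in either direction. Those higher were Hdac1, a histone deacetylase gene (log2 fold change 0.65, SE 0.21), Smad3, a transducer of TGF-beta signals (0.70, SE 0.29), and Esr1, the oestrogen receptor alpha gene (0.72, SE 0.26). Without M_KO_5645, which was at 31.1 CPM, Smad3 had a log2 fold change of 0.31. Esr1 had a low level, with means of 7.13 CPM in M_KO and 4.31 CPM in M_WT. Hdac1 was at 29.8, 50.2 and 45.7 CPM in M_KO, above the 26.6, 23.6 and 29.3 CPM of M_WT by a narrow margin, with an edgeR adjusted p of 0.450. The lower gene was Smad1, chosen after its values were seen (log2 fold change -0.49, SE 0.20). Of the 25, 7 had no overlap between M_KO and M_WT, beside 16.0% of all genes.

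Of 11 genes under menin and KMT2A control in other cells, such as leukaemia cells and endocrine cells, 7 were tested. Hoxa7, Hoxa9, Hoxa10 and Tert were too low to test. Among the 7, 5 were fitted lower and 2 higher, with a median of -0.21. Pbx3, a HOX cofactor gene, was at 7.69, 12.5 and 11.3 CPM in M_KO, all below the 15.3, 14.5 and 18.4 CPM of M_WT (log2 fold change -0.62, SE 0.22, edgeR adjusted p = 0.460). It was the 1 gene of the 7 at an unadjusted edgeR p under 0.05, beside 9.89% of all genes. Pbx3 was also the 1 of the 7 with no overlap between M_KO and M_WT, beside 16.0% of all genes. In the F pair it was at 9.93 CPM in F_KO and 18.7 CPM in F_WT, a pair in which 25.6% of all genes were past 1.5-fold. Myc (-0.28, SE 0.31) and the cell cycle inhibitor gene Cdkn2c (-0.21, SE 0.35) had log2 fold changes within their errors.

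**Figure D4:**
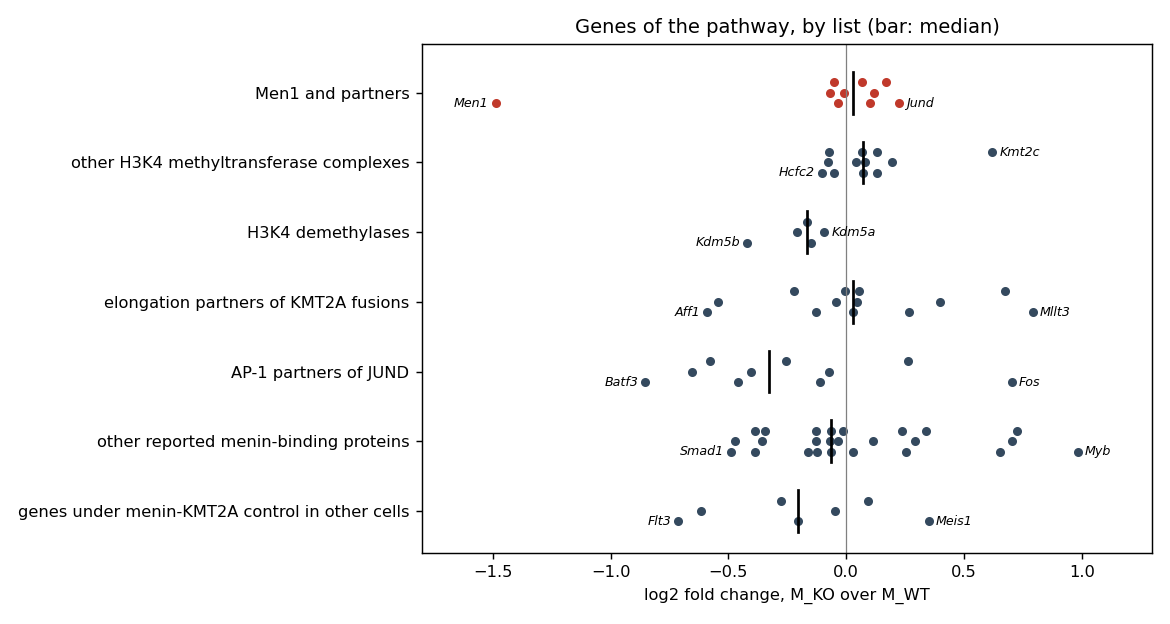
EdgeR log2 fold change of M_KO over M_WT for each tested gene of the 10 genes (top, red) and of the 6 surrounding lists; black bars are medians and the lowest and highest gene of each list are named. Men1 (-1.49) lies apart at the left, its 9 partners lie between -0.07 and 0.23, and the list medians lie between -0.33 and 0.07.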

How the data were processed

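Per gene and library, the authors deposited raw read counts as whole numbers, and the authors' FPKM values scale fragment counts by gene length and library size. The builds are GRCm38 and mm10 per the submitters' processing notes, which list the aligner HISAT2 (2.0.5), the counter featureCounts (1.5.0-p3) and DESeq2 (1.16.1). In the authors' deposited comparison table, the per-library values are a signal, the authors' own normalized counts, and the rest are log2 fold changes and p-values.

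The counts were fitted in edgeR 4.0.16 under R 4.3.3 (quasi-likelihood test, TMM scaling, default expression filter on genotype) over the 6 M libraries and 13646 genes, with Benjamini-Hochberg adjustment over all of them. Each SE was derived from that test, as the size of the log2 fold change divided by the square root of the quasi-likelihood F statistic. The 95% intervals used this SE and a t distribution with the total degrees of freedom of the test. The labels name separate animal numbers, so p-values measure the spread between these animals. Floors (3 counts) and the intervals of the F pair cover counting error only. The F pair was compared as log2 CPM with a prior count of 2, without a test. Ratios in the F pair have 95% exact Clopper-Pearson intervals. Alternatives were DESeq2 1.42.0, limma 3.58.1 (voom, log2(FPKM + 1) and log2(FPKM + 0.1)), RLE scaling, legacy dispersion, no filter or at least 1 CPM in 3 libraries, a term for animals whose number begins with 56, a prior count of 0.5, FPKM recomputed with TMM library sizes, and leaving out each M library. The M animals outside the numbers beginning with 56 were 6258 and 6255 (M_WT) and 5944 (M_KO). The term therefore cannot separate those numbers from genotype. The scripts were tested on simulated data.

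The text names the 10 genes, up to 3 genes per list with the largest log2 fold change in size (mean log2 CPM of at least 1) or any called, and the 3 genes most correlated with Men1. The genes and lists were chosen with earlier results of these data known. A second deposited table was not used.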

Additional observations from a re-analysis of the deposited data

Results flagged for a closer look

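For Kdm5c, every M_KO library lay below every M_WT library, whereas the F pair differed the other way, by 0.20 on the log2 scale (F_KO minus F_WT), and the difference between M and F was not tested. Hdac1 was higher in every M_KO library than in every M_WT library but differed by -0.60 on the log2 scale in F_KO minus F_WT. Its margin in M was narrow, with M_KO_5944 at 29.8 CPM and M_WT_6255 at 29.3 CPM. Esr1 showed the same opposition, with M_KO above M_WT throughout and a log2 difference of -0.70 in F_KO minus F_WT. Its level was low and its margin in M narrow, with M_KO_5944 at 5.88 CPM and M_WT_6258 at 5.59 CPM. For Hdac1 and Esr1 too, the difference between M and F was not tested, and with 1 library per genotype in F it has no replicate check. Over all genes tested, 16.0% had no overlap between M_KO and M_WT, and 25.6% were past 1.5-fold in the F pair. Such oppositions therefore do not show by themselves that M and F differ.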

How the results depend on the processing

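Over 15 alternatives the log2 fold change of Men1 stayed between -1.63 and -1.16, with an adjusted p from 4.49e-06 to 0.697, and of these only DESeq2 called it (log2 fold change -1.50). Without 1 library each it ran from -1.63 to -1.33 (edgeR adjusted p 0.122 to 0.543). DESeq2 raised the count of members called to 1, while the other alternatives left it at 0 (0 to 0 without 1 library each). Over all genes edgeR called 3 and DESeq2 187 (94 higher, 93 lower), and the edgeR count without 1 library each ran from 0 to 17, at 0 without M_WT_6255, 5 without M_WT_6258, 17 without M_WT_5643, 10 without M_KO_5944, 2 without M_KO_5645 and 6 without M_KO_5642. Some fitted differences changed sign, none of them past the threshold, among them that of Aff3, which was 0.68 over the 6 libraries. Without 1 library each, the log2 fold change ran from -0.025 to 0.25 for Kmt2a, -0.096 to 0.069 for Psip1, -0.14 to 0.034 for Wdr5, -0.11 to 0.022 for Rbbp5, -0.13 to 0.063 for Ash2l, -0.13 to 0.37 for Dpy30, -0.071 to 0.17 for Hcfc1, -0.028 to 1.23 for Aff3 and -0.49 to 0.028 for Cdkn2c. The sign changes came without M_WT_5643 (Psip1, Wdr5, Rbbp5, Dpy30, Hcfc1), M_WT_6255 (Ash2l), M_WT_6258 (Cdkn2c), M_KO_5944 (Kmt2a), M_KO_5645 (Psip1, Rbbp5, Ash2l, Hcfc1, Aff3) and M_KO_5642 (Dpy30), and for Ash2l also with a term for animals whose number begins with 56 (0.015). The cause of these sign changes was not tested. Kmt2b and Jund kept a positive log2 fold change in all 15 alternatives, uncalled (0.019 to 0.21 and 0.085 to 0.33). The genes of the 6 lists had 0 calls under every alternative, and the order of the 10 genes by FPKM did not change with TMM library sizes. No alternative moved the median log2 fold change of all genes past 0.03. No paired analysis was run, because the labels do not state any pairing of KO with WT animals. Among the 10 genes, counts per library were lowest for Dpy30 (98 to 274) and Men1 (126 to 523).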
